A study of Mus musculus with 13 samples.

Results

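The transcription factor p53, encoded by Trp53 in the mouse, and 9 of its direct target genes were followed in haematopoietic stem cells (HSCs), which sit in the marrow and maintain every blood lineage. The 10 genes were taken by name: Trp53, Mdm2, Cdkn1a, Ccng1, Phlda3, Zmat3, Pmaip1, Bbc3, Trp53inp1 and Aen. Of these, 9 were found among the 13201 genes of the deposited table, and Pmaip1 was not analysed here. All 9 passed the filter on low values that left 12846 genes for testing.

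Each of the 13 libraries was polyadenylated RNA of 100 sorted bone marrow HSCs, prepared with Smart-seq2, which copies whole transcripts from tiny amounts of RNA. The donors were wild-type (WT) mice or mice deficient in MEK1 (KO), which is the product of Map2k1 and the upstream kinase of ERK. They were untreated or had received 5-fluorouracil (5-FU), an antimetabolite that kills cycling blood cells. The untreated groups were 3 WT libraries (D1, D2 and D3) and 3 KO libraries (D4, D5 and D6). The 5-FU groups were 4 WT libraries, named A2, A3, A4 and D4, and 3 KO libraries, named A5, A6 and A8. The strain, age and sex of the mice, the way MEK1 was deleted and in which cells, and the dose and timing of 5-FU were not stated in the labels. The labels do not say which libraries came from separate animals either, so p-values reflect only how far these libraries differ, and some of that spread may be technical.

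In most cells p53 protein is made continuously and destroyed continuously, because Mdm2, itself a p53 target, marks it for degradation. DNA damage, ribosome stress or oncogene signalling blocks that step, and p53 then binds response elements in its target genes and raises their transcription. The best known targets stop the cell cycle (Cdkn1a), restrain p53 again (Mdm2) or promote cell death (Bbc3 and Pmaip1), and in HSCs p53 is known for its part in quiescence and in the response to genotoxic treatment. Because p53 is controlled largely at the protein level, the RNA of its targets is the usual transcript readout of its activity.

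Levels are given as normalised counts, which are read counts divided by each library's size factor. Differences are given on the deposited variance-stabilised log2 scale, on which a low gene moves less for the same fold. On that scale a doubling from a normalised count of 100 to 200 is a difference of 0.388, and a doubling from 1000 to 2000 is 0.797. Read totals were 11416753 to 25380570 per library except for 45384866 in untreated WT D1, and 12093 to 12615 genes had a read. Map2k1, the gene that the labels report as lost, had normalised counts of 905.3, 1115.8 and 1766.1 in untreated WT libraries and 610.8, 749.8 and 544.7 in untreated KO libraries. After 5-FU the KO libraries had 327.9, 459.9 and 304.4, while the WT libraries had 604.0, 1634.1, 583.9 and 1573.5. The KO libraries were below all WT libraries in both settings, and the difference passed the test after 5-FU (log2 -0.96 ± 0.28 SE, limma adjusted p = 0.0339) but not in untreated cells (log2 -0.69 ± 0.30 SE, adjusted p = 0.46). All 12 genes on the HSC marker list had reads in every group. Cd48 and Flt3 among them are usually low or absent in mouse HSCs, so their reads do not mark HSCs. The WT libraries A3 and D4 after 5-FU were nearly alike (r = 0.988 across genes, where the remaining within-group pairs had 0.914 to 0.977), so results on that group are also given with the pair averaged where that matters.

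Across all 5 comparisons, 1 test out of those on the 9 genes passed: Aen, which encodes a nuclease that takes part in p53-driven apoptosis, was higher in KO than in WT cells after 5-FU. In untreated cells 0 of the 9 genes passed between KO and WT, where 0.0311% of all genes tested passed. After 5-FU 1 of 9 passed between KO and WT, where 10.9% of all genes passed. The response to 5-FU held 0 of 9 in WT cells, against 6.68% of all genes (0 of 9 had groups without overlap, against 16.7%), and 0 of 9 in KO cells, against 5.92%. The genotype by treatment interaction, the test of whether the response differed between genotypes, also held 0 of 9, against 2.84% of all genes. At an unadjusted p under 0.05 the 9 genes gave 2, 2, 0, 1 and 1 tests in those 5 comparisons in the same limma fit. Of all 12846 genes tested, 1291, 3190, 2873, 2567 and 2139 had such a p, in the same order. The comparisons share libraries, so they are not independent of each other.

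**Figure D1:**
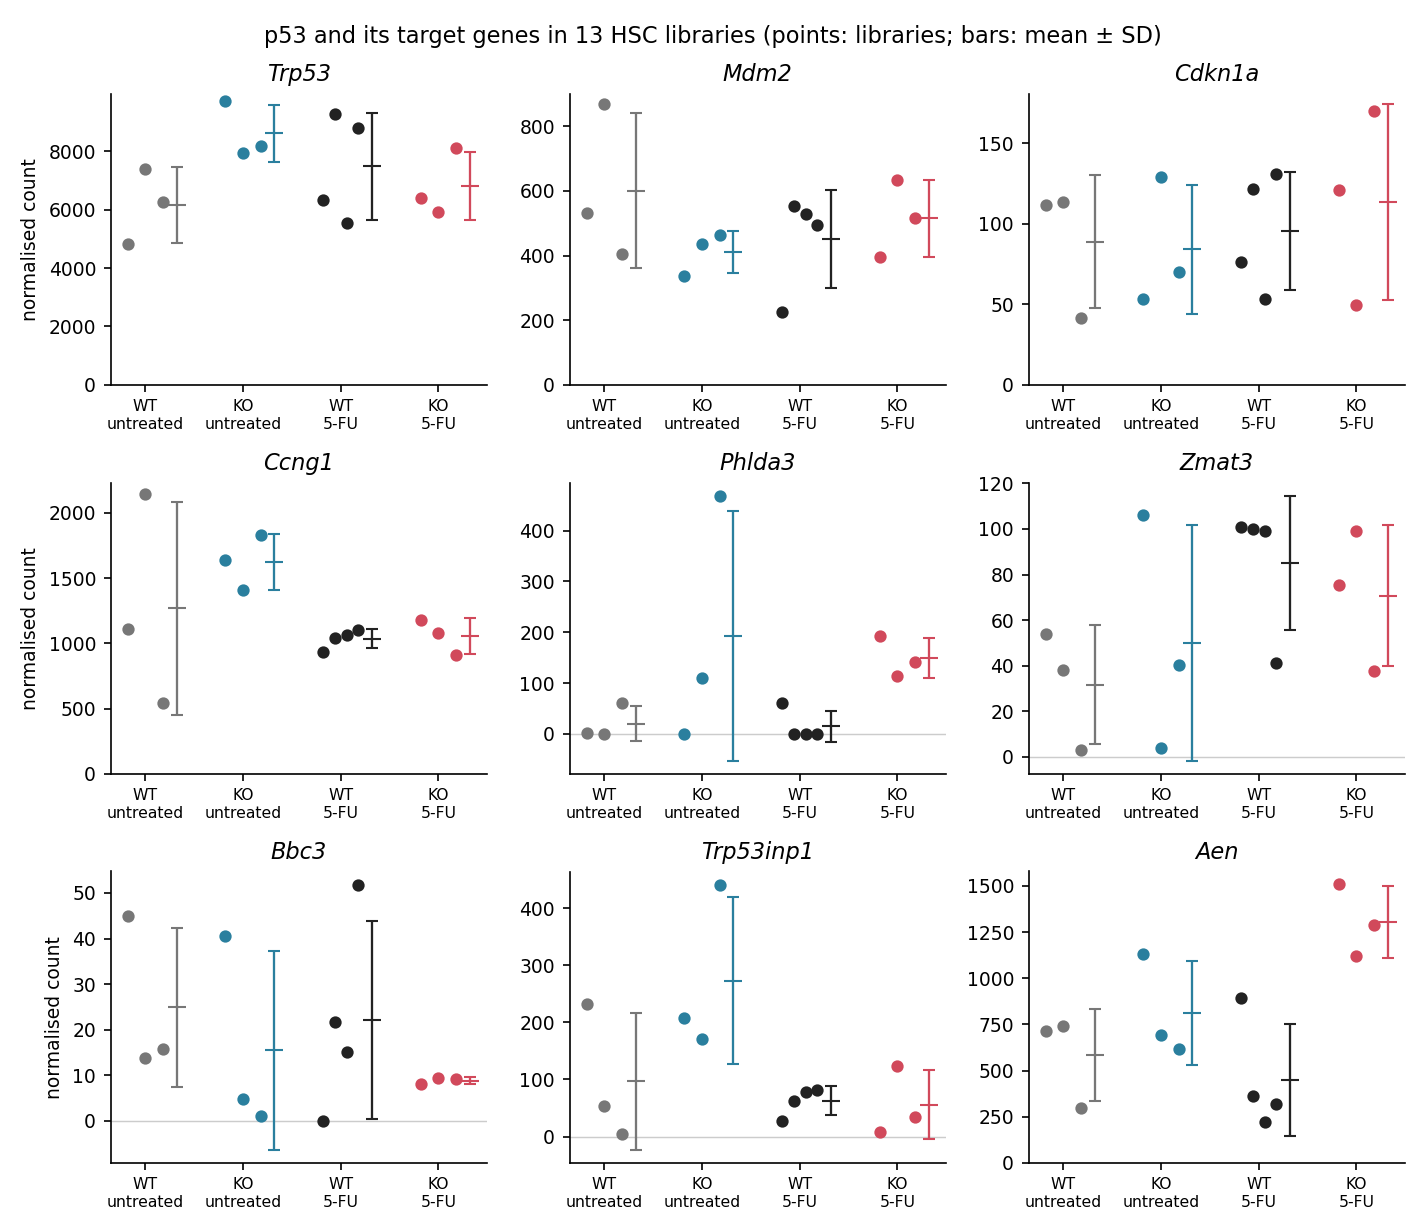
Normalised counts (vertical axes, linear, a separate scale for each gene) of the 9 genes in the 4 groups, with 1 point per library and the mean ± SD beside the points. Aen after 5-FU is the 1 difference that passed the test, with KO libraries at 1120.2 to 1510.3 and WT libraries at 218.7 to 894.5, while the groups of Cdkn1a overlap throughout.

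**Figure D2:**
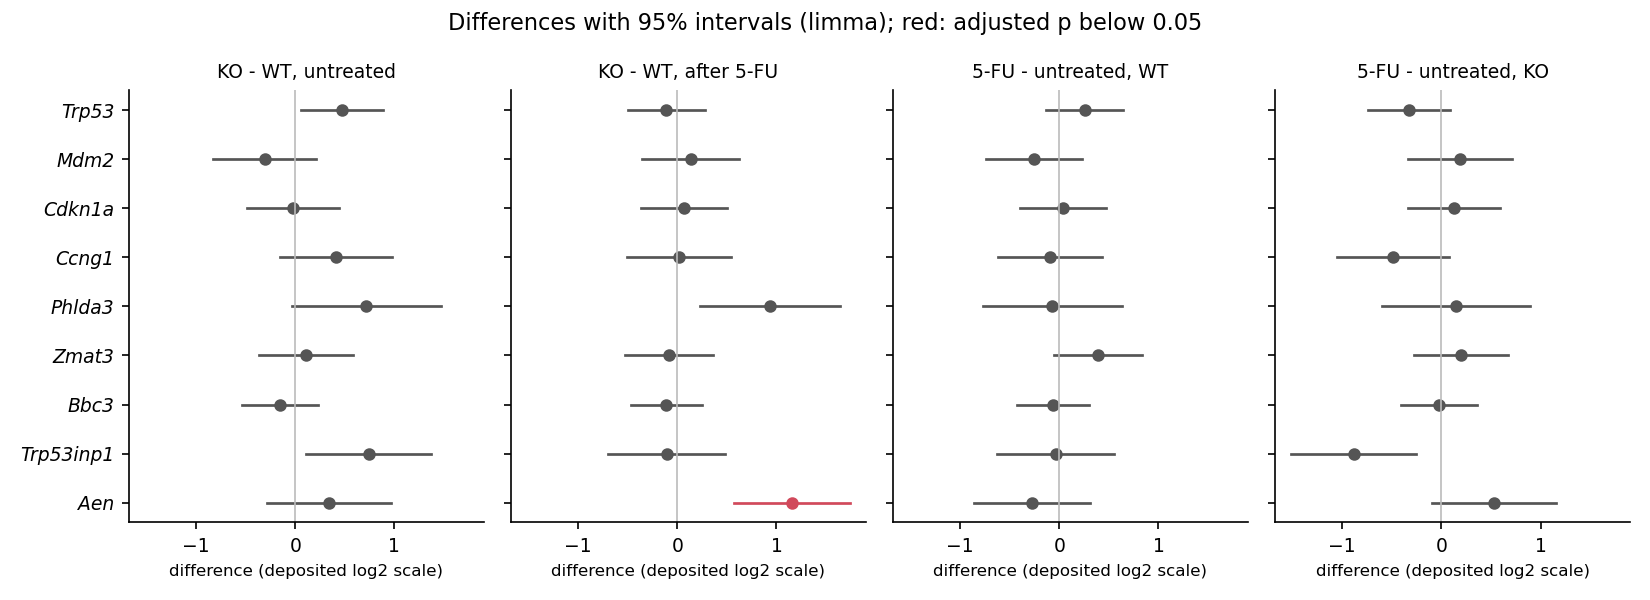
Differences between groups on the deposited log2 scale (horizontal axes) with 95% intervals from limma for the 9 genes in 4 comparisons. Red marks an adjusted p below 0.05, which only Aen reached, in KO against WT after 5-FU.

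Among the 9 genes, ordered by level per kilobase of exon so that genes of different length can be compared, Trp53 stood far above the rest. Its mean over the 13 libraries was 1801.7 normalised counts per kb, higher than that of 94.5% of the genes tested. Ccng1 followed with 350.3, Aen with 131.3, Mdm2 with 96.7, Phlda3 with 56.6, Cdkn1a with 26.9, Trp53inp1 with 18.1, Bbc3 with 8.57 and Zmat3 with 5.37 per kb. The lowest group mean of Trp53 (1523.2 per kb, untreated WT) was above the highest of Ccng1 (462.6 per kb, untreated KO), so these neighbours did not change places. Aen and Mdm2 did: Mdm2 was the higher in WT cells (118.3 ± 47.4 against 100.7 ± 42.9 per kb, SD, n = 3, untreated), and Aen was the higher in KO cells after 5-FU (225.1 ± 33.8 against 101.3 ± 23.4 per kb, n = 3). Phlda3 had no stable place, since its group means ran from 9.65 per kb in WT cells after 5-FU to 123.6 per kb in untreated KO cells. Cdkn1a and Trp53inp1 changed order as well: Trp53inp1 had the higher mean in untreated KO cells (42.2 ± 22.7 against 23.7 ± 11.2 per kb, n = 3), and Cdkn1a in WT cells after 5-FU (26.9 ± 10.4 against 9.64 ± 3.91 per kb, n = 4). Zmat3 had a higher mean than Bbc3 in KO cells after 5-FU (6.18 ± 2.70 against 4.18 ± 0.34 per kb, n = 3) and a lower one in the other groups.

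Trp53 itself (chr11:69580359-69591873, plus strand, GRCm38) was strongly expressed in all 4 groups. Its normalised counts were 4825.9, 7404.4 and 6253.2 in untreated WT libraries and 9736.1, 7939.0 and 8176.4 in untreated KO libraries. The 3 KO values lay above the 3 WT values, a separation that 11.5% of all genes tested showed in this comparison. The means were 6161 ± 1292 and 8617 ± 976 (SD, n = 3 each), a 1.40-fold difference that did not pass the test (log2 0.47 ± 0.20 SE, limma adjusted p = 0.432). After 5-FU, the 4 WT libraries had 6336.7, 9269.9, 5541.4 and 8797.3 and the 3 KO libraries 6404.0, 5929.9 and 8130.1, and these groups overlapped. Within WT the highest values were those of A3 and D4, the nearly alike pair. The response to 5-FU was log2 0.26 ± 0.18 SE in WT and -0.33 ± 0.20 in KO cells, with adjusted p-values of 0.447 and 0.382. The difference between these responses was log2 -0.58 ± 0.27 SE with an unadjusted p of 0.045 and an adjusted p of 0.285. GENCODE also lists the processed pseudogene Trp53-ps, and how reads were divided between the copies is not given.

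Mdm2 (chr10:117688875-117710758, minus strand) encodes the ubiquitin ligase that degrades p53 and is induced by p53 in a feedback loop. It had normalised counts of 530.5, 869.3 and 403.5 in untreated WT libraries, 337.2, 435.0 and 462.2 in untreated KO libraries, 225.6, 554.8, 529.7 and 494.2 in WT libraries after 5-FU, and 395.0, 633.2 and 516.4 in KO libraries after 5-FU. The groups overlapped in every comparison, and the low value in WT A2 was the lowest of the 13. In WT cells the response to 5-FU was log2 -0.26 with a 95% interval of -0.74 to 0.23 (adjusted p = 0.56). A doubling from 500 to 1000 would be 0.684 on this scale, which lies outside that interval. The interval pools the spread of all groups and counts A3 and D4 as separate, so it may be too narrow. KO and WT cells differed by log2 -0.31 ± 0.25 SE when untreated and by 0.14 ± 0.23 after 5-FU, with adjusted p-values of 0.732 and 0.775.

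Other genes that act on p53 gave several calls. Of 15 listed upstream kinases and activators 13 were tested, and of 14 listed negative regulators 13. In untreated cells 0 of these 26 differed between KO and WT. After 5-FU, 6 of 26 differed (23.1%, against 10.9% of all genes), 3 higher and 3 lower in KO cells, and the median over the 26 was log2 0.00, against -0.02 over all genes. The count of 26 genes fell to 2, Rpl5 and Mdm4, when A3 and D4 were averaged.

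Among the activators, Rpl5 was higher in KO cells after 5-FU. It encodes a ribosomal protein that binds and inhibits Mdm2, and its mean was 607.3 ± 74.7 in KO (n = 3) and 198.2 ± 69.6 in WT libraries (n = 4), a 3.06-fold difference (adjusted p = 0.0085, 0.0277 with the pair averaged). Rpl5 has processed pseudogenes, and its reads could be divided among them. Hipk2, a kinase that phosphorylates p53, was lower in KO cells (105.0 ± 39.9 against 387.0 ± 62.7, 3.69-fold, adjusted p = 0.025, 0.0653 with the pair averaged). Megakaryocyte markers moved alongside these differences: the summed normalised count of 7 markers was 29442 to 51840 in WT and 4167 to 7150 in KO libraries after 5-FU, with no marker at 0 throughout a group, and their part in these results was not tested.

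Among the negative regulators after 5-FU, Mdm4, the partner of Mdm2 that masks the activation domain of p53, was lower in KO cells. Its mean was 1323.7 ± 401.0 in KO and 2263.2 ± 179.1 in WT libraries (1.71-fold, adjusted p = 0.0263, 0.0483 with the pair averaged), and the call was lost without WT A3, WT A4, KO A6 or KO A8 (up to 0.143). Ppm1d, a phosphatase that switches off the p53 response and is itself a p53 target, was lower as well (418.3 ± 20.6 against 810.6 ± 152.5, 1.94-fold, adjusted p = 0.0449). Usp10, a deubiquitinase of p53 and so not a repressor by that action, was higher in KO cells (975.5 ± 140.4 against 467.3 ± 167.6, 2.09-fold, adjusted p = 0.0414). Trim28, a corepressor that works with Mdm2, was also higher (5730 ± 843 against 3623 ± 688, 1.58-fold, adjusted p = 0.0453). The calls of Ppm1d, Usp10 and Trim28 were lost with A3 and D4 averaged, at adjusted p-values of 0.127, 0.103 and 0.12.

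In WT cells 5-FU raised 4 of the 26 regulators and lowered 0 (15.4%, against 6.68% of all genes). Chek2, the checkpoint kinase that phosphorylates p53 after DNA breaks, rose from 666.4 ± 273.0 (n = 3) to 1627.1 ± 209.6 (n = 4), 2.44-fold, with an adjusted p of 0.00542. Rpl11, another ribosomal inhibitor of Mdm2, rose 1.48-fold from 3589 ± 187 to 5304 ± 351 (adjusted p = 0.0146). Hipk2 rose 3.05-fold (adjusted p = 0.0486) and Ppm1d 2.29-fold (adjusted p = 0.0221), and both calls were lost with the pair averaged, at 0.121 and 0.0757. With acquisition date as a term, which rests on WT D4 alone among the treated libraries, all 4 calls were lost, at 0.0961 for Chek2, 0.212 for Rpl11, 0.314 for Hipk2 and 0.179 for Ppm1d. In KO cells 0 of the 26 passed (5.92% of all genes did), with Rpl11 closest (1.39-fold, adjusted p = 0.0528). The interaction held 0 of 26 (2.84% of all genes passed), with Rpl5 closest (adjusted p = 0.0533).

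Cdkn1a (chr17:29090976-29100727, plus strand) encodes p21, the inhibitor of cyclin-dependent kinases through which p53 stops the cell cycle. RefSeq promoter windows of GRCm38.p6, 250 bases before to 50 bases after an annotated start, were searched on both strands for the p53 response element, a pair of 10-base motif copies at most 13 bases apart, with at most 1 mismatch. Of 32851 windows, 206 (0.627%) held a match. Windows were found for 7 of the 9 genes, 11 windows in all, and matches lay in windows of Cdkn1a and Ccng1. The sequences show what was found there, with the matched bases in capitals and 20 bases on either side. The Cdkn1a match at chr17:29090928-29090947 (plus strand) lies 51 to 32 bases before the more upstream annotated start and has 1 mismatch. A further match shares its upstream copy, with 12 bases between copies and 0 mismatches. Both lie in the window at chr17:29090729-29091028. The Cdkn1a window at chr17:29093519-29093818, around another annotated start, held 0 matches. The Ccng1 match at chr11:40755462-40755481 (minus strand) lies 195 to 176 bases before the start and has 1 mismatch.
Cdkn1a: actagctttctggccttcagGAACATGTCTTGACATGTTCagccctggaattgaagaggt
Ccng1: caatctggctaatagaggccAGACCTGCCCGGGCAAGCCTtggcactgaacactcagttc
A match describes these letters and does not show binding, and windows without one can have elements elsewhere.

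Cdkn1a was low and did not separate any pair of groups. Its normalised counts were 112.0, 113.4 and 41.2 in untreated WT libraries and 53.4, 129.2 and 69.8 in untreated KO libraries. After 5-FU the WT libraries had 76.4, 121.7, 53.3 and 130.8 and the KO libraries 120.9, 49.5 and 170.4, with at least 39 reads in each of the 13. The difference in response to 5-FU was log2 0.04 in WT cells, with a 95% interval of -0.39 to 0.47, and 0.13 in KO cells, with an interval of -0.33 to 0.59. KO and WT cells differed by log2 -0.02 (-0.48 to 0.44) when untreated and by 0.07 (-0.36 to 0.50) after 5-FU. Adjusted p-values were 0.936, 0.796, 0.995 and 0.882 in that order. Each interval reaches past the 0.388 of a doubling from 100 to 200, so a change of that size was not detectable with these libraries. On the opposite strand GENCODE places AC167363.2 over 273 exon bases of Cdkn1a, and libraries of this kind carry no strand information.

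Ccng1 (chr11:40748552-40755311, minus strand) encodes cyclin G1, a p53 target that recruits a phosphatase to Mdm2, and was the most abundant target per kb. Its counts were 1112.3, 2148.3 and 541.9 in untreated WT and 1637.9, 1405.5 and 1831.0 in untreated KO libraries. After 5-FU the WT libraries had 932.7, 1041.6, 1063.2 and 1104.6 and the KO libraries 1182.4, 1078.9 and 911.9. The 3 untreated WT values were widely spread (coefficient of variation 64.3%), whereas those of WT cells after 5-FU were close together (7.08%). In KO cells the values after 5-FU were all below the untreated ones, as they were or the reverse for 28.8% of all genes tested. That 1.54-fold difference did not pass the test (log2 -0.49 ± 0.27 SE, adjusted p = 0.331). All untreated KO and all treated KO libraries carry different acquisition dates in the labels, so treatment and date cannot be told apart in KO cells. In WT cells the response of Ccng1 was log2 -0.09 with an interval of -0.62 to 0.43, which leaves out the 0.797 of a doubling from 1000 to 2000. That interval rests on a spread shared by all 4 groups and counts A3 and D4 as separate. The untreated WT libraries alone ran from 541.9 to 2148.3, so it may be too narrow for them.

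Zmat3 (chr3:32334792-32366014, minus strand) encodes an RNA-binding protein that regulates splicing downstream of p53. It was the lowest per kb, with counts of 53.9, 38.2 and 3.17 in untreated WT and 105.9, 4.09 and 40.2 in untreated KO libraries. After 5-FU it had 100.7, 99.96, 98.9 and 41.2 in WT and 75.3, 99.1 and 37.7 in KO libraries. In WT cells 3 of the 4 treated libraries were above all untreated ones, and the means differed 2.68-fold, but D4 fell within the untreated range. The difference was log2 0.39 ± 0.21 SE with an interval of -0.06 to 0.83 (adjusted p = 0.296).

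Other p53 targets that restrain the cell cycle gave few calls. Of 16 listed, 13 were tested, and 0 passed between KO and WT in untreated cells. After 5-FU 2 of 13 were lower in KO cells and 0 higher, where 10.9% of all genes passed. Btg2, an antiproliferative cofactor of mRNA deadenylation, averaged 133.2 ± 34.3 in KO (n = 3) and 853.8 ± 294.0 in WT libraries (n = 4), 6.41-fold lower (adjusted p = 0.0205). Ccng2, the cyclin G paralogue, averaged 169.3 ± 84.1 and 632.5 ± 221.0, 3.74-fold lower (adjusted p = 0.0161). With A3 and D4 averaged both calls were lost, at 0.06 and 0.0543. The groups did not overlap for either gene, as was the case for 27.0% of all genes tested between KO and WT after 5-FU.

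With 5-FU, 1 of these 13 genes fell in WT and 1 in KO cells, in each case Ndn, and 0 rose (6.68% and 5.92% of all genes passed). Ndn encodes necdin, a growth suppressor known in HSCs for supporting quiescence. It fell 2.77-fold in WT cells, from 1438 ± 392 to 519 ± 282 (log2 -1.09 ± 0.23 SE, adjusted p = 0.00887), and 3.21-fold in KO cells, from 1774 ± 370 to 553 ± 92 (log2 -1.24 ± 0.25 SE, adjusted p = 0.00691). Both calls held with the pair averaged and without any single library, with adjusted p-values up to 0.0429 and 0.0406, but both were lost with acquisition date as a term (0.0804 and 0.202).

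Cell cycle genes that p21 lowers through the DREAM repressor complex were tested as a further list. All 20 listed genes were tested, and their median difference was above 0 in each of the 4 comparisons between groups. In untreated cells 2 of 20 were higher in KO cells and 0 lower (0.0311% of all genes passed), and the median over the 20 was log2 0.89, against 0.00 over all genes. Cdc20, the activator of the anaphase-promoting complex, averaged 991 ± 203 in WT and 3494 ± 473 in KO libraries (3.52-fold, n = 3 each, adjusted p = 0.0121). Bub1, a kinase of the spindle checkpoint, averaged 125.8 ± 144.5 and 882.2 ± 231.7 (7.01-fold, adjusted p = 0.0385). Cdc20 lost its call without KO D6 (adjusted p = 0.0504), and Bub1 lost its call in 10 of the fits that left out a library and with the pair averaged (0.0685).

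In WT cells 5-FU raised 15 of the 20 and lowered 0 (6.68% of all genes passed), with a median of log2 1.13. The smallest p-values were those of Cdc20 (4.31-fold), Cdca8, Ccnb2, Bub1 (7.97-fold) and Cks2. With A3 and D4 averaged 11 of the 15 remained, and Ccna2 (0.0521), Ccnb1 (0.0572), Cenpf (0.056) and Mki67 (0.0665) lost the call. In KO cells 5-FU raised 9 of 20 and lowered 0 (5.92% of all genes passed), with a median of log2 0.92. Birc5, a survival and chromosome segregation protein, rose 2.31-fold there (adjusted p = 0.00302), and Cdk1, the kinase of mitotic entry, rose 2.04-fold (adjusted p = 0.00454). After 5-FU, Cdk1 (2.16-fold), Birc5 (1.64-fold) and Ccna2 (1.85-fold) were higher in KO than in WT cells, and 0 of 20 were lower (10.9% of all genes passed). Birc5 and Ccna2 lost that call with the pair averaged, at 0.0655 and 0.0548. The interaction called 0 of the 20 (2.84% of all genes passed), with 6 at an unadjusted p under 0.05 (16.6% of all genes), and its median was log2 -0.42. With acquisition date as a term, 8 of the 15 calls in WT and 0 of the 9 in KO cells remained. Cell markers moved with 5-FU in the same libraries. In WT cells 6 of 7 megakaryocyte markers rose and 0 fell (Pf4 22.5-fold), and 6 of 12 HSC markers fell and 1 rose (Procr 16.1-fold and Fgd5 12.7-fold lower). In KO cells 0 of 7 megakaryocyte markers passed, and 4 of 12 genes on the HSC list fell and 1 rose (Cd48, usually low or absent in mouse HSCs). Their part in the cell cycle counts was not tested.

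**Figure D3:**
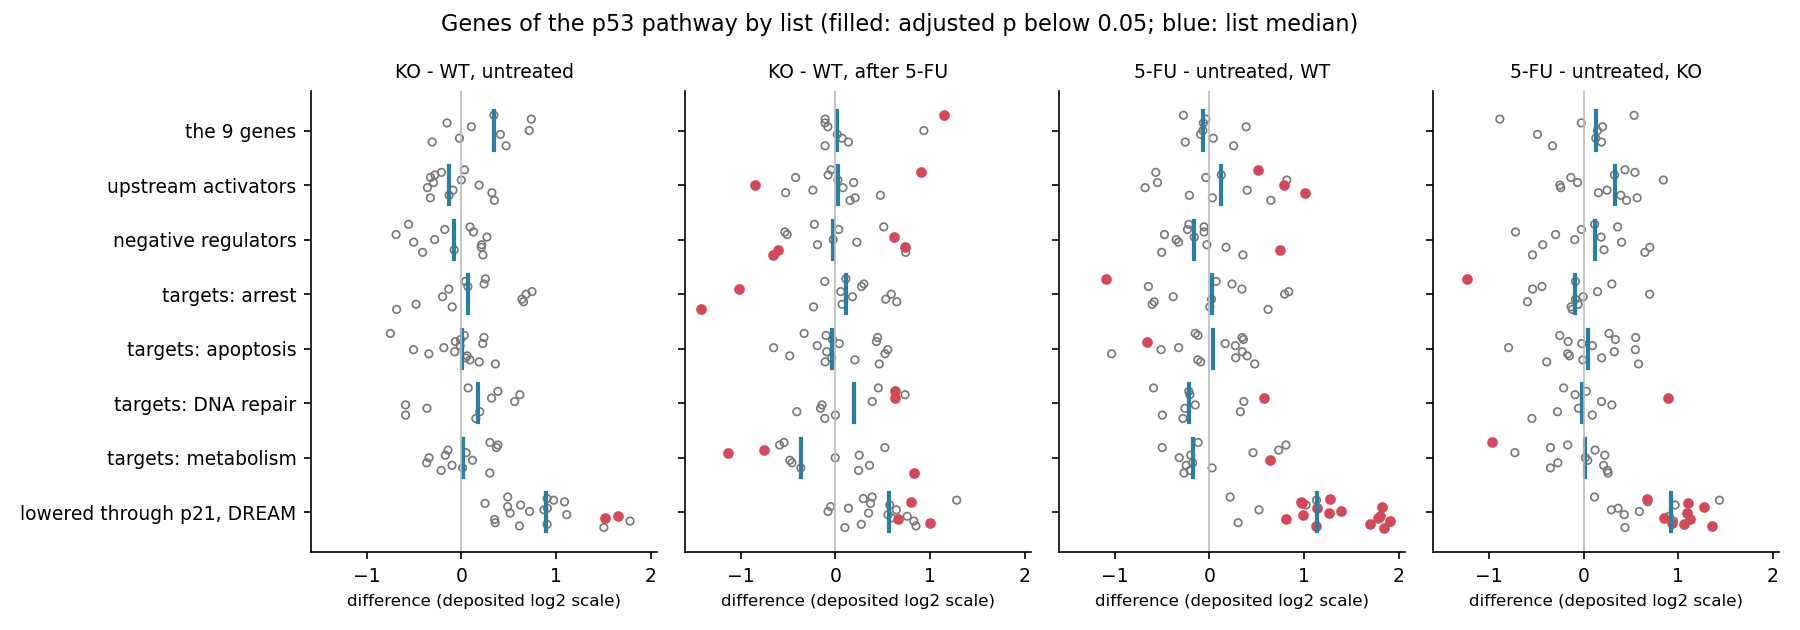
Differences on the deposited log2 scale (horizontal axes) for every tested gene of the p53 pathway, by list (vertical axis), in 4 comparisons, with filled points at an adjusted p below 0.05 and a blue bar at the list median. The medians of the target lists lie near 0, while the genes lowered through p21 and DREAM lie to the right of 0, with a median of 1.13 for 5-FU in WT cells.

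Aen (chr7:78895854-78911209, plus strand) was the target with the clearest difference. After 5-FU the KO libraries A5, A6 and A8 had counts of 1510.3, 1120.2 and 1286.5, while the WT libraries had 894.5 (A2), 360.7 (A3), 218.7 (A4) and 320.1 (D4). Every KO library was above every WT library, as was the case in either direction for 27.0% of all genes tested in this comparison. The mean was 1305.7 ± 195.8 in KO (SD, n = 3) and 448.5 ± 303.3 in WT (n = 4), a 2.91-fold difference (log2 1.15 ± 0.28 SE, limma adjusted p = 0.013). The fold was 2.69 with A3 and D4 averaged (adjusted p = 0.0381) and 2.66 among the libraries of the later acquisition date alone, that is without WT D4 (adjusted p = 0.0411). Without WT A2 it was 4.35-fold, and without KO A5 the call was lost (2.68-fold, adjusted p = 0.0685).

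In untreated cells the difference of Aen did not pass, and neither did the interaction, which tests whether it changed with 5-FU. Untreated WT libraries had 715.3, 739.6 and 296.8 and untreated KO libraries 1133.1, 690.1 and 614.6, and the groups overlapped. The difference there was log2 0.34 with an interval of -0.28 to 0.97 (adjusted p = 0.748), and the interaction was log2 0.81 ± 0.41 SE (adjusted p = 0.328). The response to 5-FU was log2 -0.28 in WT (adjusted p = 0.61) and 0.53 in KO cells (adjusted p = 0.337). Besides the megakaryocyte markers, other marker lists differed between these treated groups. The summed normalised count of the 9 erythroid markers was 4795.8 to 6812.3 in WT and 3613.6 to 4170.6 in KO libraries. Of the 8 tested, 3 (Rhag, Klf1 and Car1) were lower in KO cells and 0 higher (10.9% of all genes passed). The summed normalised count of the 7 neutrophil markers analysed was 446.2 to 1266.7 in WT and 36.3 to 42.9 in KO libraries, where Lcn2 and Mpo were at 0. The mast cell and basophil sum (2 markers) was 1874.6 to 2256.7 in WT and at most 666.5 in KO libraries, with Fcer1a passing the test, and the T and NK cell sum (2 markers) was 5769.7 to 6835.3 and 1696.8 to 3810.1, with Klrb1c at 0 in KO. The B cell sum (3 markers) was 1165.0 to 1954.5 in WT and 553.6 to 794.8 in KO libraries. The macrophage and the stromal and endothelial sums overlapped. That of the 12 genes on the HSC list, Cd48 and Flt3 included, was 15018 to 20434 in WT and 12003 to 14033 in KO libraries. Their part in the difference of Aen was not tested, and in pools of cells, a change in the share of cells carrying an RNA cannot be told apart from a change in RNA per cell.

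Phlda3 (chr1:135766119-135769136, plus strand) encodes a pleckstrin-homology protein that restrains Akt signalling, and its reads were present in some libraries and missing from others. Its counts were 0.979, 0 and 60.2 in untreated WT and 0, 109.6 and 468.6 in untreated KO libraries. After 5-FU the WT libraries had 60.2, 0, 0 and 0 and the KO libraries 192.1, 114.4 and 141.8. The treated groups did not overlap, as was the case for 2 of the 9 genes and 27.0% of all genes tested in this comparison. The difference missed the threshold (log2 0.93 ± 0.33 SE, interval 0.23 to 1.64, adjusted p = 0.0841). The means were 149.4 ± 39.5 in KO (n = 3) and 15.0 ± 30.1 in WT libraries (n = 4), a 9.93-fold difference, and leaving out any library other than WT A2 gave 7.45-fold to 11.1-fold. The WT mean came from A2 alone. Without it the test passed (adjusted p = 0.0486), and KO libraries were at least 48.8-fold higher than the floor of 3 reads per library. It also passed without untreated KO D4 or D6, which changes only the shared estimate of spread (0.0309 and 0.0258), and in a fit of the treated libraries alone (0.0111). With A3 and D4 averaged the adjusted p was 0.181. Where a library had 0 reads, counting error alone allows up to 3 reads, which is a normalised count of 0.979 to 4.35 depending on the library.

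Trp53inp1 (chr4:11156431-11174379, plus strand) encodes a stress protein that works with p53 in cell death and autophagy. Its counts were 231.5, 54.4 and 4.23 in untreated WT and 207.3, 170.9 and 441.1 in untreated KO libraries, then 26.6, 62.3, 78.9 and 81.7 in treated WT and 8.06, 123.8 and 35.1 in treated KO libraries. All treated KO libraries were below all untreated KO libraries, a separation that 28.8% of all genes tested showed in either direction. The means were 55.7 ± 60.6 and 273.1 ± 146.6, a 4.91-fold difference. The test did not pass (log2 -0.88 ± 0.30 SE, interval -1.51 to -0.26, adjusted p = 0.0923), except where untreated WT D1, which is no part of the comparison, was left out (0.0433). The ratio depended on 1 library, since without KO A6 it was 12.6-fold. In untreated cells KO exceeded WT by log2 0.74 ± 0.30 SE (adjusted p = 0.411), with overlapping groups. The response in WT cells was log2 -0.04 (-0.63 to 0.55), and the interaction was -0.85 (-1.71 to 0.01, adjusted p = 0.307).

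Bbc3 (chr7:16308393-16318205, plus strand) encodes PUMA, the BH3-only protein that is the main killer downstream of p53 in many blood cells. Its counts were at most 51.8 in any library, with 45.1, 13.9 and 15.8 in untreated WT, 40.5, 4.91 and 1.06 in untreated KO, 0, 21.7, 15.2 and 51.8 in treated WT, and 8.06, 9.43 and 9.11 in treated KO libraries. The groups overlapped in all 4 comparisons, with adjusted p-values from 0.751 to 0.96. At this level a doubling from 20 to 40 is a difference of 0.185, less than the reach of every interval, so such a change was not detectable. Pmaip1, which encodes the related killer NOXA, was not analysed here.

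Further apoptosis targets gave few calls. All 16 listed genes were tested, and 0 passed between KO and WT in untreated cells, after 5-FU, in the KO response or in the interaction. At an unadjusted limma p under 0.05 there were 1, 4, 3 and 1 of the 16 in that order. Of all 12846 genes tested, 1291, 3190, 2567 and 2139 had such a p. In WT cells 5-FU lowered 1 of 16 and raised 0 (6.68% of all genes passed). Casp1, an inflammatory caspase, fell from 2254 ± 253 to 1302 ± 243 (1.73-fold, adjusted p = 0.0211, 0.064 with the pair averaged). The p53 relatives Trp63 and Trp73 were not analysed here.

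Targets in DNA repair and nucleotide supply gave 2 of 10 higher in KO cells after 5-FU and 0 lower (10.9% of all genes passed). Rps27l, a ribosomal protein paralogue induced by p53, averaged 8659 ± 612 in KO and 5522 ± 1052 in WT libraries (1.57-fold, adjusted p = 0.0138). Pcna, the replication clamp, averaged 12479 ± 339 and 8051 ± 1646 (1.55-fold, adjusted p = 0.0258), and has the processed pseudogene Pcna-ps2. Both held with the pair averaged (0.0175 and 0.033), but Rps27l lost its call without KO A8 (0.068), and Pcna without WT A4 or any of the 3 treated KO libraries (up to 0.087). Rps27l was also the gene of this list that rose with 5-FU in both genotypes, 1.56-fold in WT (adjusted p = 0.03) and 1.91-fold in KO cells (adjusted p = 0.00384). The WT call was lost without WT A2 or D4 or untreated D2 or D3 (up to 0.106).

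Targets in metabolism and signalling gave 1 of 13 higher and 2 lower in KO cells after 5-FU (10.9% of all genes passed). Abhd4, a lipase of N-acylethanolamine synthesis, averaged 1421 ± 234 in KO and 3565 ± 536 in WT libraries (2.51-fold lower, adjusted p = 0.0066), a call that held with the pair averaged (0.0151) and without any single library (up to 0.041). Rap2b, a small GTPase, was 2.06-fold lower (adjusted p = 0.0406, 0.0713 with the pair averaged). Tigar, which lowers glycolytic flux, was at 0 in all 4 treated WT libraries and averaged 92.7 ± 62.7 in KO libraries, at least 29.3-fold higher than the floor of 3 reads per library (adjusted p = 0.0294, 0.0659 with the pair averaged). With 5-FU, Prkab1, a subunit of the energy sensor AMPK, rose 1.79-fold in WT cells (adjusted p = 0.0321, 0.0801 with the pair averaged). Lpin1, a phosphatidate phosphatase, fell 13.8-fold in KO cells, from 189.7 ± 60.7 to 13.8 ± 10.8 (adjusted p = 0.0301), and lost the call without 5 of the 6 KO libraries in turn (up to 0.126).

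Taking the 52 tested direct targets outside the 9 together, 0 differed between KO and WT in untreated cells. After 5-FU 7 differed (13.5%, against 10.9% of all genes), 3 higher and 4 lower, and 3 (Rps27l, Pcna and Abhd4) still did with A3 and D4 averaged. With 5-FU 2 rose and 2 fell in WT cells (7.69%, against 6.68%), 1 rose and 2 fell in KO cells (5.77%, against 5.92%), and 0 passed the interaction. The median difference over the 52 was log2 0.05, 0.02, -0.12 and -0.04 in the 4 comparisons between groups, against 0.00, -0.02, 0.00 and -0.01 over all genes. The shares of the targets lay close to those of all genes tested. Over all pathway lists outside the 9 genes, 3 of the 16 calls between KO and WT after 5-FU (Rpl5, Abhd4 and Cdk1) remained without any single library, as did 12 of the 23 in the WT response and 6 of the 12 in the KO response. With the date term 6, 8 and 0 of these remained, and the 8 were all cell cycle genes of the DREAM list. The 9 genes themselves had medians of log2 0.34, 0.02, -0.06 and 0.13.

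The 9 genes did not vary together across libraries. Over their 36 pairs, Pearson's r of the deposited values over the 13 libraries had a median of 0.09 and was above 0 in 24 pairs. The highest r was that of Ccng1 and Trp53inp1 (0.599) and the lowest that of Phlda3 and Bbc3 (-0.746), a pair of low and partly zero counts. Trp53 had r of -0.05 with Mdm2, 0.29 with Cdkn1a and 0.36 with Ccng1. These values are descriptive, since the 13 libraries fall into 4 groups and include the nearly alike pair.

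**Figure D4:**
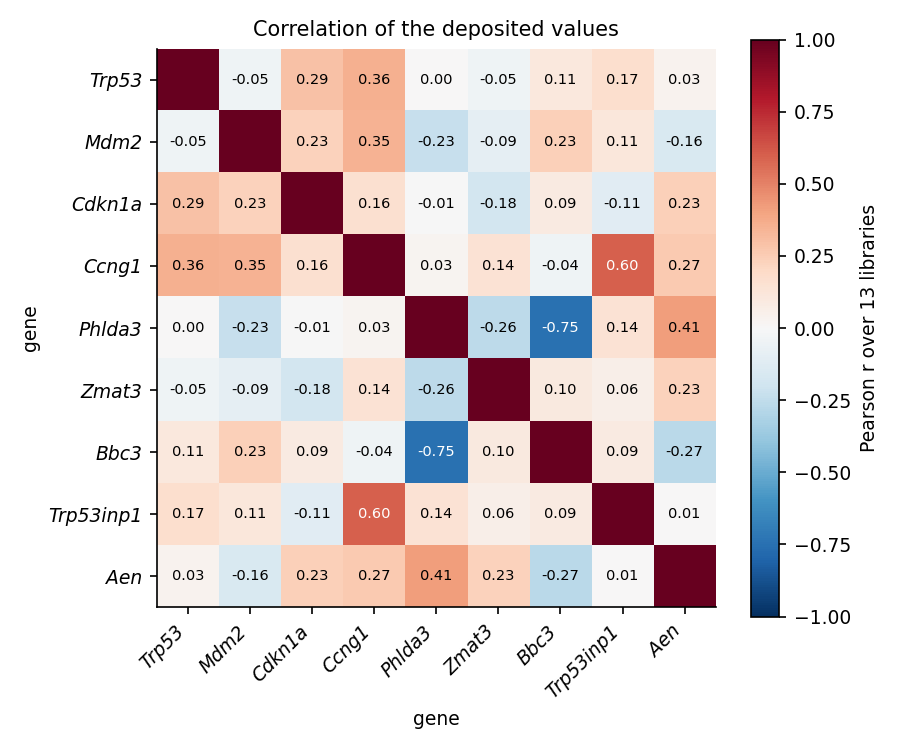
Pearson's r over 13 libraries for each pair of the 9 genes (both axes), as colour and as printed value. Most cells are pale, with a median of 0.0899, and the strongest are Ccng1 with Trp53inp1 (0.599) and Phlda3 with Bbc3 (-0.746).

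The genes whose deposited values ran most like those of the main members over the 13 libraries were not p53 targets from the lists. For Trp53 they were Snx15 (r = 0.884), Ptp4a3 (0.877) and Mid1ip1 (0.868). Mdm2 was followed by Rxylt1 (0.903), Bckdhb (0.804) and Ksr2 (0.789). For Cdkn1a the genes were Adat2 (0.834), Spire1 (0.805) and Taf1a (0.797), and for Ccng1 they were Fndc4 (0.872), Fam234a (0.861) and Glce (0.859). Mdm2 ranked 2839 and Trp53 1976 in likeness to Cdkn1a, and Trp53inp1 ranked 295 in likeness to Ccng1, the closest rank between any of these 4 genes and another of the 9.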

How the data were processed

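RNA of 100 sorted HSCs per library was measured in 13 libraries. The values are log2-scale variance-stabilised values that the authors made with DESeq2 and deposited as normalised data, per the submitters' processing notes, which also name Trimmomatic, Bowtie 1.1.1 and mm10. How reads were counted, with which strand setting and on which gene models, is not given in the sources used here. The transformation was inverted (value at a normalised count of 0: 7.6484), and 100.0% of values in each library came out as whole reads within 0.1, with an added constant of 1, or of 2 in untreated WT D1. Symbols came from GENCODE M21 (GRCm38) for 13054 identifiers, and 147 had none. Promoters came from RefSeq (GRCm38.p6).

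Genes were kept where 3 or more libraries reached a normalised count of 10. They were tested with limma 3.58.1 in R 4.3.3 on the deposited values, with 1 mean per group over 13 libraries, a trended empirical Bayes variance (9 residual and 7.67 prior degrees of freedom) and Benjamini-Hochberg adjustment over 12846 genes at 0.05. The method was tested on simulated data, in which every library was drawn independently, so they held no counterpart of the nearly alike pair A3 and D4. Members, gene lists and tests were chosen with earlier results of these data known. By rule, all members were named, along with Map2k1 and, from each other list, the genes that passed (at most 5 by smallest p) or else at most 1. The 3 genes most like each of 4 members were also named. Listed genes without a value, Pmaip1 among them, were not analysed here. Alternatives covered filters, pseudocounts, scaling, weights, variance models, the pair A3 and D4, acquisition date and each library in turn. Depth limits low genes: 3 reads are a normalised count of 0.979 to 4.35. Figures were drawn with matplotlib 3.10.9 in Python 3.11.15, and tables handled with pandas 2.3.3 and numpy 2.4.6.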

Additional observations from a re-analysis of the deposited data

Results flagged for a closer look

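In the 4 WT libraries after 5-FU, the only group large enough for such a check, 2 of the 9 genes had a library apart from the others. Zmat3 had a normalised count of 41.18 in D4 and 98.9 to 100.7 in the others, a gap to the nearest library of 0.97 of the group's range, above Dixon's 95% critical value for 4 values. Phlda3 had 60.17 in A2 and 0 in the other 3 libraries. With 3 values tied at 0 its gap is the whole range whatever A2 holds, so the criterion says nothing about how far A2 lies from them. Chance marks about 1 in 20 groups of independent values, a rate that does not carry over to zero counts or to a group with the nearly alike libraries A3 and D4. For Zmat3 these libraries differed (99.96 and 41.18).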

How the results depend on the processing

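Of the 45 tests on the 9 genes, Aen after 5-FU was the 1 that passed, and it kept its direction in every alternative and its call in all but the fit without KO A5. The count of the 9 genes that passed between KO and WT after 5-FU was 1, where 1395 of all 12846 genes passed. It was 3 with library weights (Aen, Phlda3 and Trp53, the latter at log2 -0.41, adjusted p = 0.00994), where 5611 of all genes passed. It was 2 in a fit of the treated libraries alone, where 1846 passed, and 0 to 2 without a library, where 694 to 1606 passed. In the KO response it was 0 to 1 without a library, where 356 to 979 of all genes passed. No paired analysis was possible because replicate names do not pair libraries within any comparison. The name D4 occurs in untreated KO and in treated WT cells, which differ in both genotype and treatment. Treatment and acquisition date cannot be told apart in KO cells, and the depth limits Phlda3, Bbc3 and Zmat3. The cause of the shifts below was not tested.

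The number of all genes called between untreated KO and WT (4) was 2 with a minimum of 50, 11 and 9 with log2 of the normalised count plus 0.5 and 1, 0 with limma-voom and in a fit of the 2 groups alone, 2 with A3 and D4 averaged and 2 with date as a term, and 1 to 25 without a library. After 5-FU (1395) it was 869 with limma-voom, 5611 with library weights, 913 with the pair averaged, 881 with the date term and 694 to 1606 without a library. For 5-FU in WT (858) it was 1732 with library weights, 415 in a fit of the WT groups alone, 510 with the pair averaged, 219 with the date term and 464 to 990 without a library. For 5-FU in KO (761) it was 408 with limma-voom, 1466 with library weights, 7 with the date term and 356 to 979 without a library. For the interaction (365) it was 864 with library weights, 237 with the pair averaged, 199 with the date term and 140 to 476 without a library.

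Differences that did not pass changed sign as follows. With log2 of the normalised count plus 0.5, 1 and 5, Trp53inp1 in the WT response was 0.56, 0.52 and 0.31, and with plus 0.5 and 1, Bbc3 in the KO response was 0.41 and 0.31. Quantile normalisation gave Bbc3 in the interaction -0.059, CPM gave Trp53inp1 in the WT response 0.023, and limma-voom gave Bbc3 in the KO response 0.40. Library weights gave Cdkn1a -0.17 and Zmat3 0.072 after 5-FU, Bbc3 0.11 and Trp53inp1 0.092 in the WT response, and Cdkn1a -0.16 and Bbc3 -0.14 in the interaction. The averaged pair gave Cdkn1a -0.011 in the WT response. The date term gave Bbc3 0.23 and Trp53inp1 0.086 in the WT response, and Trp53 0.0089, Phlda3 -0.11, Zmat3 -0.15 and Bbc3 0.37 in the KO response.

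Without a library, the ranges that crossed 0 were as follows. Untreated KO against WT gave Cdkn1a -0.15 to 0.062 and Zmat3 -0.092 to 0.31. KO against WT after 5-FU gave Mdm2 -0.030 to 0.25, Ccng1 -0.044 to 0.097, Cdkn1a -0.058 to 0.23, Trp53inp1 -0.32 to 0.075 and Zmat3 -0.17 to 0.023. The WT response gave Bbc3 -0.16 to 0.044, Trp53inp1 -0.33 to 0.29, Ccng1 -0.46 to 0.28, Cdkn1a -0.095 to 0.12 and Phlda3 -0.24 to 0.15. The KO response gave Phlda3 -0.33 to 0.63, Bbc3 -0.12 to 0.13 and Zmat3 -0.0036 to 0.40. The interaction gave Bbc3 -0.068 to 0.19, Phlda3 -0.26 to 0.70, Zmat3 -0.39 to 0.012 and Cdkn1a -0.038 to 0.25.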
